A study of Mus musculus with 3 samples.

Results

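Among the cells of the mouse mandibular condyle at embryonic day 16.5, 407 cells held Crabp1 transcripts while having little Col9a1 and Sfrp2 and no transcript of several markers of division, blood and vessel. They are called Crabp1 cells here. They were selected on 8 genes. A cell needed at least 2 Crabp1 UMIs per 10000, fewer than 3 of the cartilage collagen gene Col9a1 and fewer than 5 of the fibroblast gene Sfrp2 per 10000, and no UMI of Pthlh, of the division genes Mki67 and Top2a, of the leukocyte gene Ptprc or of the endothelial gene Pecam1. Those genes chose the cells, so their levels are a description and not a result. The 407 cells are 8.92% of the 4562 kept cells of the library (95% exact binomial interval 8.11 to 9.79), out of 16589 kept cells in the 3 libraries of the series.

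Crabp1 encodes a cytosolic protein that binds retinoic acid, the vitamin A derivative that patterns the developing face, and its transcript is a familiar marker of facial and dermal mesenchyme. Retinoic acid is made by retinaldehyde dehydrogenases such as Aldh1a3, degraded by Cyp26 enzymes and sensed by nuclear receptors that bind DNA. The mandibular condyle grows from mesenchyme of neural crest origin whose cells can become cartilage, bone or fibrous tissue.

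The study profiled condylar cartilage of wild-type C57BL6 mice in 3 libraries, named E16.5, P0 (newborn) and 13w (adult, 13 weeks), to describe the cell types of the developing jaw joint. Condyles of 7 to 20 mice were pooled for each age, digested with collagenase A and dispase 2, and sorted as Calcein-positive, DAPI-negative live cells before droplet sequencing of the 3′ ends of transcripts. Each age is 1 library, so no difference here has a replicate check or a test, and the intervals cover counting error only. Depth differed between the groups set side by side: the median was 14052 UMIs per Crabp1 cell and 17942 per other kept cell of the E16.5 library. The E16.5 library as a whole had a median of 17401.5 UMIs per kept cell, while P0 had 17954 and the adult library had 11010.

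The Crabp1 cells were set against 4155 other kept cells and, more closely, against 525 Crabp1-low cells, which passed every other limit of the rule but had under 2 Crabp1 UMIs per 10000 (median 13511 UMIs). Further groups are shown where they help. Cycling Crabp1 cells (577) met the limits except that they had a UMI of Mki67 or Top2a, Sfrp2-high cells numbered 914, and Col9a1 cells numbered 1014. Col9a1 cells, which carry the cartilage label of the tissue (Col2a1 at 10618 CPM), had a median of 40311.5 UMIs and held 40.7% of the UMIs of all other kept cells. Levels are counts per 1000000 summed UMIs of a group (CPM). A gene is called higher or lower at a ratio of at least 2 with at least 10 CPM in the higher group.

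Of 1400 kept cells at or above the Crabp1 limit, 761 had a UMI of Mki67 or Top2a, 280 exceeded the Sfrp2 limit, 175 had Pthlh, 50 had Pecam1, 32 exceeded the Col9a1 limit and 5 had Ptprc, where a cell can count more than once. Within the Crabp1 cells the level ran from 2.01 to 61.2 UMIs per 10000 with a median of 5.43, and the median cell held 8 Crabp1 UMIs. A single UMI put 16 cells over the limit and 2 UMIs put 26 over, while 365 had 3 or more. In the 45 cells just inside the limit (2 to 2.5 per 10000) Tac1 stood at 129 CPM, against 57.5 CPM in the 49 cells just outside it (1.5 to 2 per 10000), and Mest at 758 CPM, against 872 CPM. Other genes lay close together across the limit: Col26a1 at 91.7 CPM, against 84.5, S100a4 at 132 CPM, against 125, and Ibsp at 127 CPM, against 144. Crabp1-low cells were not a Crabp1-free group, as 221 of them held at least 1 UMI.

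The working name of these cells, immature mesenchyme marked by Crabp1, Tac1, Col26a1 and Mest, was checked against their transcripts. Among the 3 markers that did not choose the cells, Tac1 alone was past a ratio of 2. Tac1, which encodes the precursor of substance P, stood at 214 CPM (95% Poisson interval 203 to 226; 1316 UMIs) in Crabp1 cells, against 37.0 CPM in all other kept cells and 62.0 CPM in Crabp1-low cells. Mest, an imprinted gene of fetal mesoderm, stood at 900.05 CPM, against 465.5 and 739 CPM, a ratio below 2 in both cases (log2 ratios 0.95 and 0.28). Col26a1, a collagen gene, stood at 84.1 CPM, against 61.9 and 71.3 CPM. Cycling Crabp1 cells had 98.7 CPM of Col26a1, and the 53 cells with endothelial markers had 1911.5 CPM of Mest, so both genes were also abundant outside the Crabp1 cells. No gene of the immaturity and imprinted growth lists was called higher either. The cells are therefore named here by their rule.

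**Figure D1:**
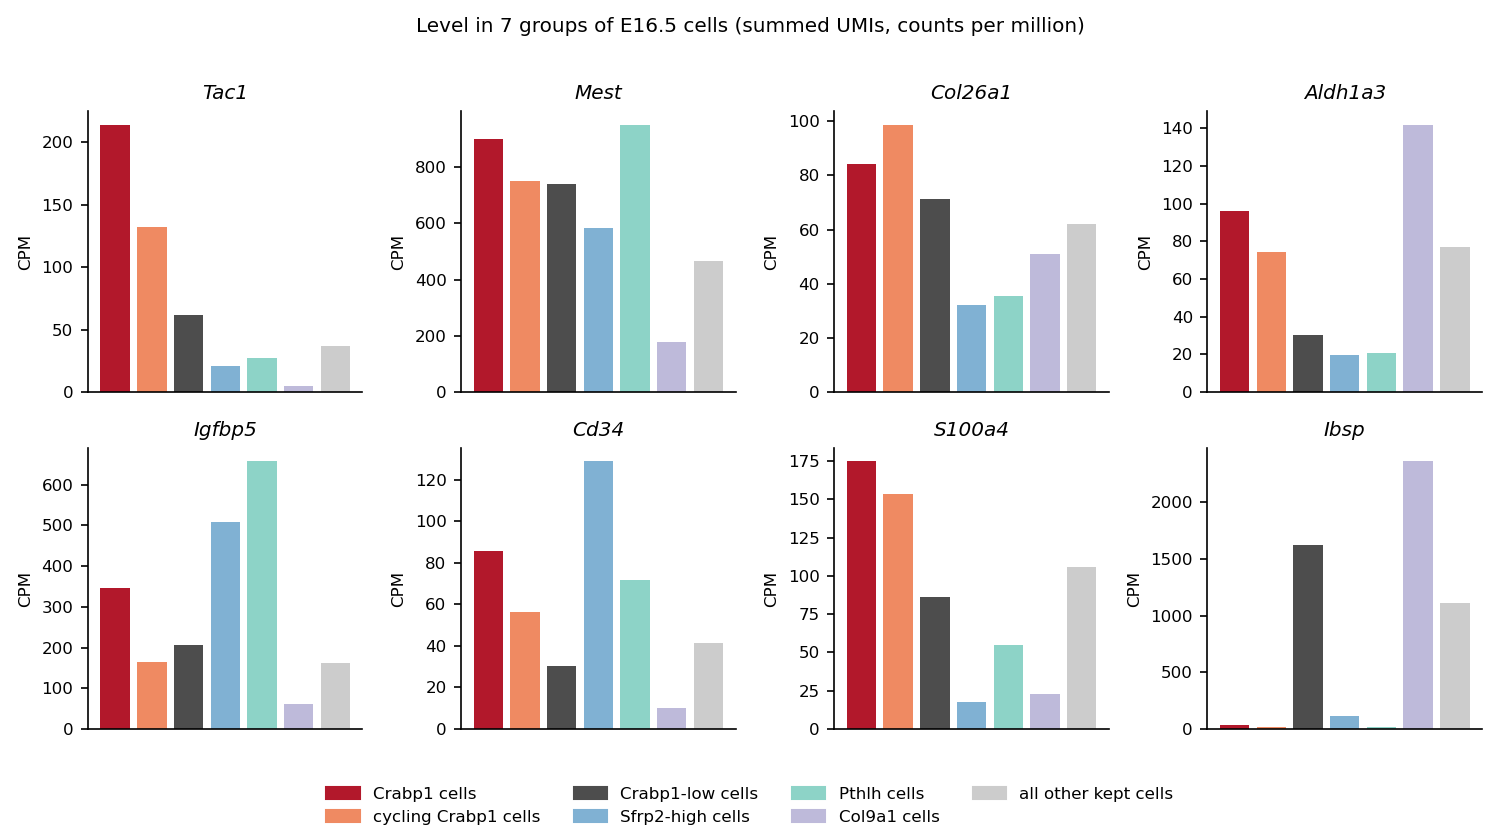
Level of 8 genes in 7 groups of E16.5 cells, in CPM (vertical axis, UMIs summed over the cells of a group; 1 pooled library, no error bars). Tac1 was highest in Crabp1 cells at 214 CPM, whereas Mest, Aldh1a3, Cd34, Igfbp5 and Col26a1 were each higher in another group.

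Tac1 had the largest ratio among higher genes of 100 CPM or more in both comparisons. The log2 ratio was 2.53 against all other kept cells (95% counting interval 2.44 to 2.63) and 1.79 against Crabp1-low cells (1.64 to 1.94). The transcript was spread over 182 of 407 Crabp1 cells, and the cell with most held 67 UMIs, 5.09% of the total. With every cell thinned to 3000 UMIs, 30.4% of Crabp1 cells had a Tac1 UMI, against 8.06% of all other kept cells and 11.7% of Crabp1-low cells; the unthinned shares were 44.7%, 19.5% and 23.0%. In cells with leukocyte markers the thinned share was 1.49% (2 of 134 cells, median 10455 UMIs), and in those with endothelial markers it was 0 of 50 cells, where a count of 0 allows a share with a UMI at that depth of up to 6.0%. Unthinned, 4.17% and 5.66% of the cells of those groups had a Tac1 UMI. Thinning left out 9 Crabp1 cells, 161 other kept cells and 48 Crabp1-low cells that were shallower.

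Since Tac1 led the higher genes of 100 CPM or more and Crabp1 chose the cells, both promoters are shown, from RefSeq on build GRCm38.p6 (the deposited counts use GRCm39, so no coordinate is carried across). Each runs from 250 bases before to 50 bases after the transcription start, 5′ to 3′ on the plus strand. Capitals mark GGGCGG (GC box), TGACG (a cAMP response half-site) and CACGTG (E box), on either strand, and no marked motif overlaps another.
Crabp1, chr9:54764498-54764797: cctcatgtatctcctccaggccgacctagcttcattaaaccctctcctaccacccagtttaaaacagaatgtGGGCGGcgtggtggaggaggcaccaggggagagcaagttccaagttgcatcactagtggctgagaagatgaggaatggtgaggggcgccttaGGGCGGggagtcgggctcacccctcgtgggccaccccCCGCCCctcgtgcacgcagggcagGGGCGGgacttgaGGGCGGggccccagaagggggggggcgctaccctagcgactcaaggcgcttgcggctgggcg
Tac1, chr6:7554811-7555110: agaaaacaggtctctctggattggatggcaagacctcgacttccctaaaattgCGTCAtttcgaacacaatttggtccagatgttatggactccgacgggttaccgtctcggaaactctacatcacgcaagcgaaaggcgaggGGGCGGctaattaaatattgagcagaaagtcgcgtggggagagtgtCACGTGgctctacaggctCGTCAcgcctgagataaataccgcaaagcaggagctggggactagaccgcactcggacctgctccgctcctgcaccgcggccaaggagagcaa
The Crabp1 window held 5 GC boxes and no match to the other 2 motifs, and the Tac1 window held 1 GC box, 2 cAMP response half-sites and 1 E box. Of 27025 promoters of the same length, 35.9% held a GC box, 21.0% the half-site and 7.24% the E box. Neither window held TATAAA (14.2% of promoters) or the nuclear receptor half-site AGGTCA (16.04%). A match is a description of the letters and says nothing of binding. Windows for Col26a1 and Aldh1a3 were not used here.

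Against all other kept cells, 107 of 8226 measured genes (1.3%) were called higher and 634 (7.71%) lower in Crabp1 cells. With equal weight per cell 53 were higher. Behind Tac1, the named genes that were higher include Mxra8, a matrix-remodelling surface protein, the non-coding Foxd2os, Serpinf1, which encodes the anti-angiogenic factor PEDF, the receptor phosphatase Ptprd, the small proteoglycan Aspn, S100a6, Pdzrn4, the IGF-binding protein Igfbp5, Mgst3 and Ecrg4. S100a6, a calcium-binding protein, stood at 1170 CPM, against 534 CPM in all other kept cells. Igfbp5 stood at 346 CPM, against 162 CPM, but at 509 CPM in Sfrp2-high cells. Cells with leukocyte markers held 1396 CPM of S100a6. Apart from Tac1, log2 ratios of these genes lay between 1.07 and 1.24, close to the limit of 1. Most of the genes furthest down belong to cells that the rule left out: the cartilage genes Col2a1 (84.3 CPM, against 4411), Cnmd, Col10a1, Comp and Snorc, the division genes Cenpf and Hist1h1b, and the neutrophil or myeloid genes S100a8, S100a9, Stfa1 and Lyz2. Plaat3 was also among the genes furthest down. The 144 cells with leukocyte markers were all among the other kept cells; without other cell classes there, Stfa1 and S100a9 had log2 ratios of 0.31 and 0.28.

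Against Crabp1-low cells, 31 of 7875 measured genes (0.394%) were higher and 100 (1.27%) lower. With cells thinned to 3000 UMIs the counts were 181 and 276, and with equal weight per cell 183 were lower. S100a4, a calcium-binding protein of motile and stromal cells, stood at 175 CPM, against 86.4 CPM in Crabp1-low cells (log2 ratio 1.02), and at 1783 CPM in cells with leukocyte markers. The S100a4 ratio was just past the limit and stayed past it under 10 of 14 alternatives, with a lowest log2 ratio of 0.65. At P0 it fell short, with S100a4 at 226 CPM, against 175 CPM. Others named by the same rule, S100a6, Igfbp4, Igfbp5, Fgfr1, Pdcd4, Gng2, Mgst3, Nrep and Foxd2os, had log2 ratios of 0.53 to 0.78, short of the limit. Aldh1a3, which makes retinoic acid, was the retinoid gene that differed: 96.0 CPM, against 30.2 CPM, a log2 ratio of 1.67 (1.45 to 1.89). Col9a1 cells had more of it, 142 CPM, and all other kept cells 77.2 CPM. Thinned to 3000 UMIs, 23.4% of Crabp1 cells had an Aldh1a3 UMI, against 10.9% of Crabp1-low cells and 0 of 134 cells with leukocyte markers, where a count of 0 allows a share with a UMI at that depth of up to 2.24%. Unthinned, the shares were 54.1%, 24.2% and 4.17%.

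In the other direction, 4 of 13 measured genes of hypertrophy, bone and mineral were lower in Crabp1 cells than in Crabp1-low cells, Ibsp, Ifitm5, Smpd3 and Spp1. None was higher. Of all measured genes, 1.27% were lower and 0.394% higher in that comparison. Alpl, an enzyme of mineralising cells, was at 117 CPM, against 96.0 CPM, within the limit. Ibsp, which encodes bone sialoprotein, stood at 35.3 CPM in Crabp1 cells, against 1620.2 CPM in Crabp1-low cells. Ifitm5, an osteoblast membrane protein, stood at 35.6 CPM, against 188 CPM, and Smpd3, a sphingomyelinase needed for mineralisation, at 27.0 CPM, against 105 CPM. Ibsp sat in few cells: the highest 10% of Crabp1-low cells held 99.4% of their Ibsp UMIs, and 1 Crabp1 cell held 91 of the 217 Ibsp UMIs of its group. Lgals3 (83.8 CPM, against 241), the lactate transporter Slc16a3 (66.7, against 151) and Col2a1 (84.3, against 186) were also called lower. Msmo1, Ndufa4l2, Higd1a, C1qtnf3 and Col11a1 had log2 ratios between -0.98 and -0.77, short of the limit. Actc1, a muscle actin, stood at 18.1 CPM, against 102 CPM, and 110 of its 111 UMIs in Crabp1 cells came from 1 cell. Its log2 ratio was -2.49, and 5.08 once cells with 3 or more markers of muscle, vessel, nerve, epithelium or blood were left out of the Crabp1-low cells.

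Neuropeptide genes were 5 measured of 23 listed. Beside Tac1, Nts, the neurotensin gene, was past the limit at 16.8 CPM, against 1.27 CPM in Crabp1-low cells, but all 103 of its UMIs came from 8 cells. Ramp1, a co-receptor for calcitonin gene-related peptide, was lower (4.72 CPM, against 14.1 CPM in Crabp1-low cells). Penk, the enkephalin precursor, was at 63.0 CPM, against 45.0 CPM in Crabp1-low cells, within the limit. Of 11 measured retinoid genes none was called higher and 2 lower against all other kept cells, where 1.3% and 7.71% of all measured genes were. The lower ones were Rbp4 and Cyp26b1, a retinoic acid hydroxylase (11.7 CPM, against 25.4 CPM). Against Crabp1-low cells Aldh1a3 was the single call. Crabp2 (12.7 CPM, against 16.1 CPM in all other kept cells) and the receptor Rarg (75.3, against 77.7) lay near each other in both groups.

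The transcription factors of jaw and limb patterning, 27 measured of 53 listed, had a median log2 ratio of 0.45 against all other kept cells, where the median of all measured genes was -0.06. Only Pax9 was called higher (34.2 CPM, against 13.6 CPM), and Osr1, Foxc1, Foxp1, Ebf1 and Ebf3 were lower. Of all measured genes, 1.3% were higher and 7.71% lower against all other kept cells. Twist1 (285 CPM, against 149 CPM), Pitx1 (171, against 90.5) and Gsc (92.2, against 51.3) fell short of a ratio of 2. Against Crabp1-low cells the median was 0.18 and Ebf1 the only call, lower at 22.4 CPM, against 63.0 CPM. Imprinted growth genes (18 measured) and genes of fetal growth and immaturity (16 measured) had medians of 0.08 and 0.15, with none higher in either list and 2 and 3 lower against all other kept cells. Igf2 stood at 1523 CPM, against 977 CPM in all other kept cells, and H19 at 2653 CPM, against 2112 CPM. Hmga2 was lower at 6.34 CPM, against 14.9 CPM in all other kept cells. Against Crabp1-low cells none was higher in either list.

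Candidate markers of stromal progenitors, not all of them surface proteins, were measured for 19 of 27 genes. Of these 4 were higher and 3 lower against all other kept cells, where 1.3% and 7.71% of all measured genes were. Thy1 stood at 35.5 CPM, against 9.31 CPM, Cd34 at 85.7 CPM, against 41.4 CPM, Pdgfrb at 48.6 CPM, against 23.7 CPM, and Fap at 45.1 CPM, against 21.6 CPM. The lower ones were Nt5e (16.9 CPM, against 57.7), Cspg4 (63.8, against 204) and Dpt (6.34, against 16.8). Against Crabp1-low cells 1 of 19 was higher, Cd34 (85.7 CPM, against 30.5 CPM, log2 ratio 1.49). Nes (5.86, against 19.5) and Tagln (29.4, against 63.0) were the 2 lower, while Thy1 had a log2 ratio of 0.97. Of all measured genes, 0.394% were higher and 1.27% lower in that comparison. Sfrp2-high cells had more Cd34, 129 CPM, and cells with endothelial markers had 566 CPM. The endothelial markers themselves summed to 0.813 CPM in Crabp1 cells, where the rule had left out every cell with Pecam1. Of 26 measured axon guidance genes 5 were higher against all other kept cells, where 1.3% of all measured genes were, and 4 lower, where 7.71% were. The higher ones were Sema3a, Slit3, Robo2, Epha3 and Epha7, with log2 ratios between 1.04 and 1.25, and the lower ones Sema3b, Unc5b, Unc5c and Ntng1, between -2.08 and -1.09. Against Crabp1-low cells none was higher and Sema3b was lower.

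Of 12 measured genes of fibroblast growth factor signalling 2 were higher and 3 lower against all other kept cells. Of all measured genes, 1.3% were higher and 7.71% lower there. Those shares hold for each list set against all other kept cells below. The transcription factor genes Etv1 and Etv5 were higher (17.9 CPM, against 8.73, and 12.7 CPM, against 5.57). The cartilage receptor Fgfr3 (20.3, against 116), the decoy receptor Fgfrl1 (18.1, against 40.6) and the ligand Fgf18 (5.69, against 13.3) were lower. Of 11 measured genes of the IGF axis 2 were higher against all other kept cells, Igfbp5 and Pappa2, a protease that cuts IGF-binding proteins, and 2 lower, Igfbp2 (16.1 CPM, against 64.7) and Igfbp7 (37.4, against 78.2), with a median log2 ratio of -0.25. Pappa2 stood at 28.6 CPM, against 13.6 CPM in Crabp1-low cells. Among 14 measured genes of hypertrophy, bone and mineral 8 were lower and none higher than in all other kept cells, yet Runx2, the master factor of bone, stood at 148 CPM, against 127 CPM, and Sp7 at 36.3 CPM, against 41.3 CPM. Sox9, the master factor of cartilage, stood at 353 CPM, against 476 CPM. Of 19 measured cartilage genes 15 were lower and 1 higher, Ucma (67.0 CPM, against 26.5 CPM). The rule had left out every Col9a1 cell, so the lower cartilage genes are partly set by it. Against Crabp1-low cells 2 of 14 measured cartilage genes were lower and none higher. Of all measured genes, 1.27% were lower and 0.394% higher in that comparison. The 20 mitosis genes were all lower than in all other kept cells, and the rule had left out every cell with Mki67 or Top2a. None of the 6 measured was called against Crabp1-low cells.

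**Figure D2:**
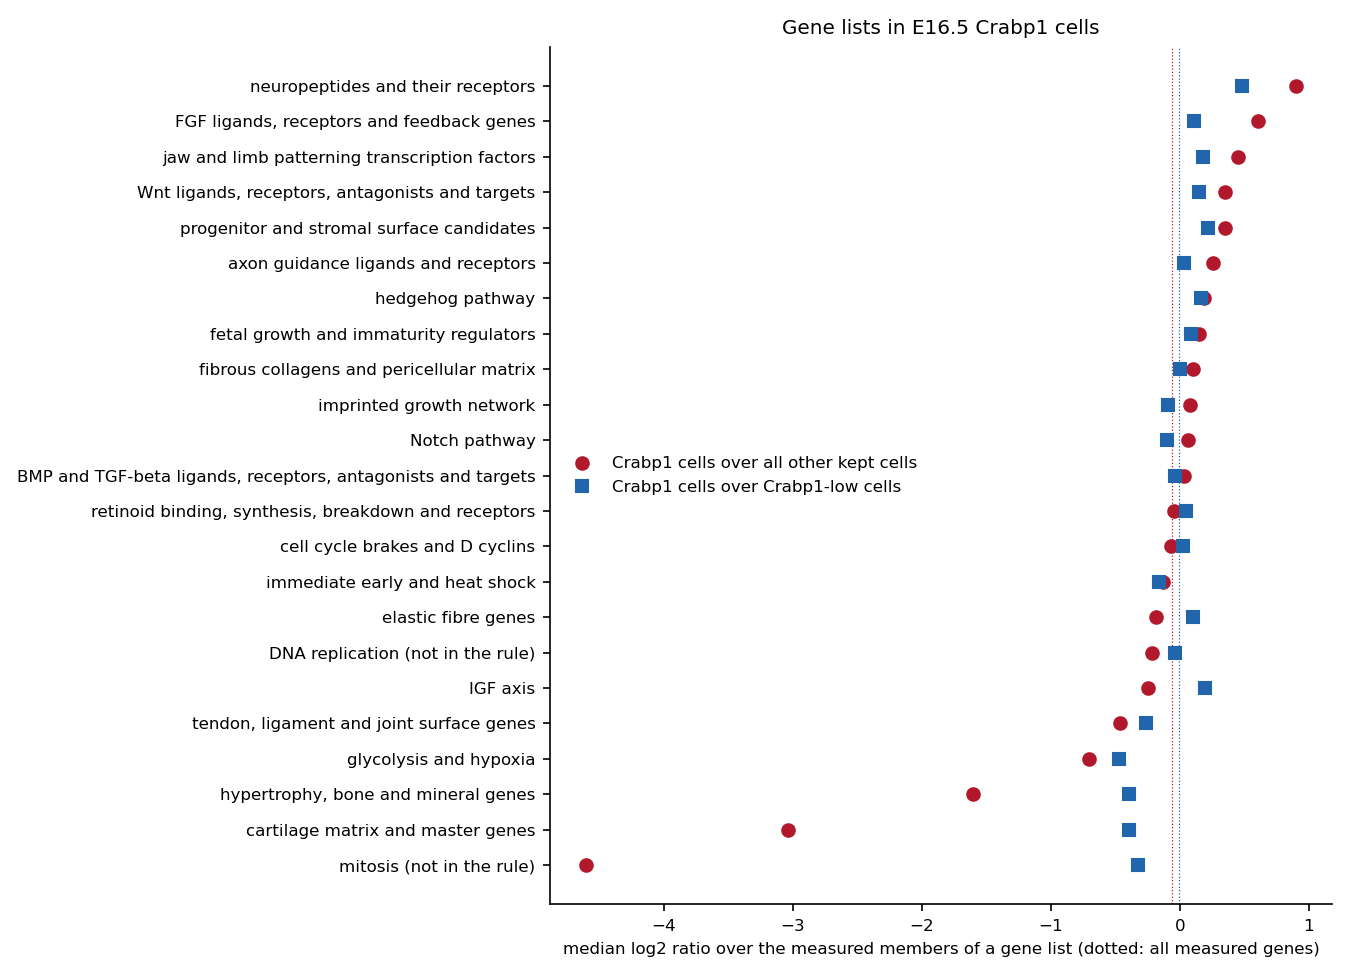
Median log2 ratio (horizontal axis) over the measured members of 23 gene lists in E16.5 Crabp1 cells, against all other kept cells (circles) and Crabp1-low cells (squares), with dotted lines for all measured genes. Against Crabp1-low cells every list median lay between -0.47 and 0.49, and mitosis (-4.61) and cartilage matrix (-3.04) were furthest down against all other kept cells. The rule had left out Col9a1 cells and every cell with Mki67 or Top2a.

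Cycling Crabp1 cells were set apart by a UMI of Mki67 or Top2a, so lower division genes in Crabp1 cells follow from the grouping. Tac1 was below a ratio of 2 in this comparison. Of 8023 measured genes 15 (0.187%) were higher and 313 (3.9%) lower in Crabp1 cells, and all 20 mitosis genes were lower with a median log2 ratio of -5.37. Outside the lists of mitosis and DNA replication, no list had more than 2 calls. Tac1 stood at 214 CPM, against 132 CPM. Against Sfrp2-high cells, 236 of 8734 measured genes (2.7%) were higher and 1064 (12.2%) lower. There 20 of 34 measured patterning factors and 14 of 17 tendon and joint surface genes were lower, and Foxd2os (145 CPM, against 9.17) and Pdzrn4 (169 CPM, against 18.9) were higher. Against Col9a1 cells, 932 of 8177 (11.4%) were higher and 1000 (12.2%) lower. There 19 of 25 measured patterning factors were higher.

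Markers of blood and vessel cells were near 0 in Crabp1 cells. The rule had left out every cell with a UMI of Pecam1 or Ptprc, so these low levels are partly set by it. Endothelial markers summed to 0.813 CPM, against 27.5 CPM in all other kept cells, with Tie1 at 0 and Pecam1 at 0 by the rule. Leukocyte markers summed to 5.04 CPM, against 417 CPM, with Cd52 and Cpa3 at 0 and Ptprc at 0 by the rule. The erythroid list summed to 11.4 CPM, against 305 CPM. Muscle markers summed to 38.4 CPM, against 34.7 CPM, and 1 Crabp1 cell had at least 3 of them. Crabp1-low cells held more of several of these: 91.1 CPM of leukocyte, 234 CPM of muscle and 943 CPM of erythroid markers, and with such cells left out 70 genes were lower in Crabp1 cells, in place of 100.

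Within the 407 cells, the cells richest in Crabp1 were also richest in Tac1, Cd34, Igfbp5, Fgfr1 and Aldh1a3, and poorest in Lgals3, Pth1r and Col12a1. Cells with 10 or more Crabp1 UMIs per 10000 (105 cells) were set against those with 2 to 5 (184 cells): 278 of 7980 measured genes (3.48%) were higher and 287 (3.6%) lower. These bands are cut from the rule's own gene, and the values describe these cells. Tac1 stood at 108, 159 and 510 CPM in the bands from 2 to 5, from 5 to 10 (118 cells) and at 10 or more. Cd34 stood at 35.5, 76.4 and 206 CPM, Igfbp5 at 197, 302 and 723 CPM, Fgfr1 at 116, 190 and 352 CPM and Aldh1a3 at 57.5, 102 and 172 CPM. The other way, Lgals3 stood at 136, 44.1 and 17.8 CPM, Pth1r, the receptor of parathyroid hormone-related protein, at 171, 135 and 56.9 CPM, and Col12a1 at 534, 474 and 146 CPM. Runx2 stood at 158, 142 and 132 CPM. Median depth was 16132, 13890 and 13605 UMIs.

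**Figure D3:**
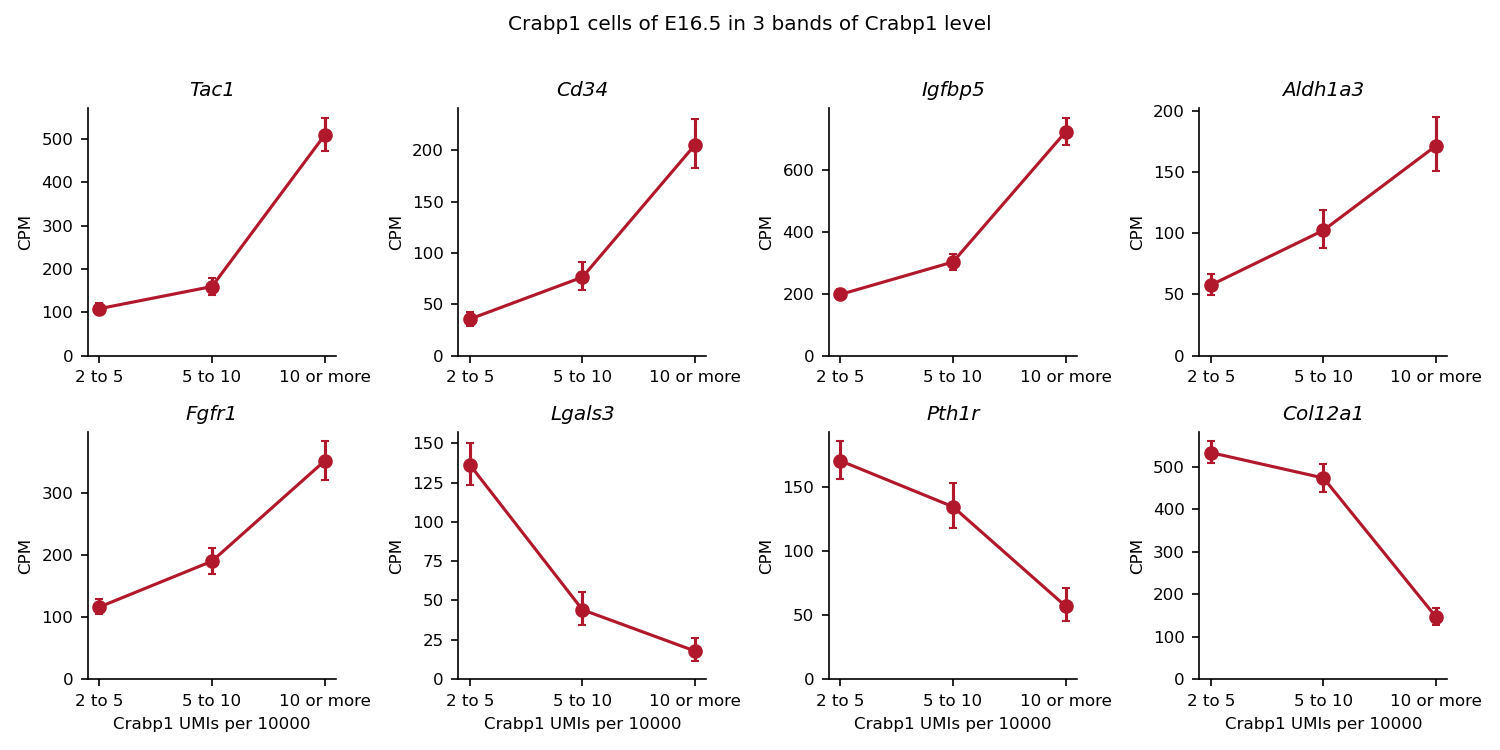
Level of 8 genes (vertical axis, CPM with 95% Poisson intervals) in Crabp1 cells of E16.5 in 3 bands of Crabp1 level (horizontal axis, UMIs per 10000). Tac1, Cd34, Igfbp5, Aldh1a3 and Fgfr1 were highest at 10 or more, and Lgals3, Pth1r and Col12a1 were lowest there.

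Clustering the 407 cells on their own gave 5 sub-clusters, described by their leading genes and left unnamed. Sub-cluster 1 (126 cells) was led by Tac1 (569 CPM, against 71.8 CPM in the other Crabp1 cells), Cd34, Zbtb20, Nfia, Igfbp5, Nfib, Fgfr1 and Aldh1a3, and 92.1% of its cells had a Tac1 UMI. Sub-cluster 2 (112 cells) had 8.21 CPM of Tac1 and was led by Alpl, the alkaline phosphatase of mineralising cells (267 CPM, against 47.9 CPM), Pdzrn4, Cbr3, Csrp1, Pth1r, Lgals3 and Col12a1. Sub-cluster 3 (73 cells) was led by Hes1, Ogn, Eln and Epha4, after Actc1, whose 110 UMIs there were all in 1 cell. Sub-cluster 4 (72 cells) differed little, with Mgp the leading gene at 704 CPM, against 333 CPM. Sub-cluster 5 (24 cells) carried Col14a1 (734 CPM, against 1.35 CPM, in 20 of 24 cells), Thbs4 and Tbx18, while Tac1 and Runx2 were at 0. The 27 Tnmd UMIs that put this gene first there were all in 1 cell, and the neuronal genes Nefm and Prph were in 4 and 5 cells.

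A split of the cells by a Tac1 UMI could also be read in cells that the rule left out. Crabp1 cells with a Tac1 UMI numbered 182 and those without 225, with median depths of 14166 and 13955 UMIs. Cd34 stood at 154 CPM, against 28.7 CPM, Fgfr1 at 302 CPM, against 96.4 CPM, and Ecrg4 at 1556 CPM, against 545 CPM. Alpl stood at 33.1 CPM, against 188 CPM, and Lum, a proteoglycan of collagen fibrils, at 106 CPM, against 431 CPM. Of 7952 measured genes 144 were called higher and 278 lower in cells with Tac1. From these cells 15 genes with large ratios were taken, 8 higher and 7 lower in cells with Tac1. Median depths with and without Tac1 were 21765 and 19961 UMIs in cycling Crabp1 cells. In the P0 cells by the rule they were 9291 and 9468 UMIs. Counts over all measured genes are not given here for those other groups. In cycling Crabp1 cells, which are other cells of the same library, all 15 were on the same side and 10 past a ratio of 2: Cd34 stood at 89.3 CPM, against 24.98 CPM, and Lum at 97.5 CPM, against 352 CPM. In the 145 cells that met the rule in the P0 library, a separate pool of mice, all 15 were again on the same side and 7 past a ratio of 2. There Alpl stood at 14.9 CPM, against 153 CPM, and Igfbp5 at 439 CPM, against 179 CPM, while the intervals of Fgfr1 (log2 ratio 0.25, -0.03 to 0.54) and Pdzrn4 included 0. Crabp1 itself differed between the sides at E16.5 (1013 CPM, against 538 CPM), while at P0 it stood at 419 CPM, against 424 CPM (log2 ratio -0.02, -0.25 to 0.22). At 13 weeks 3 of 67 cells had a Tac1 UMI, too few for the split.

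**Figure D4:**
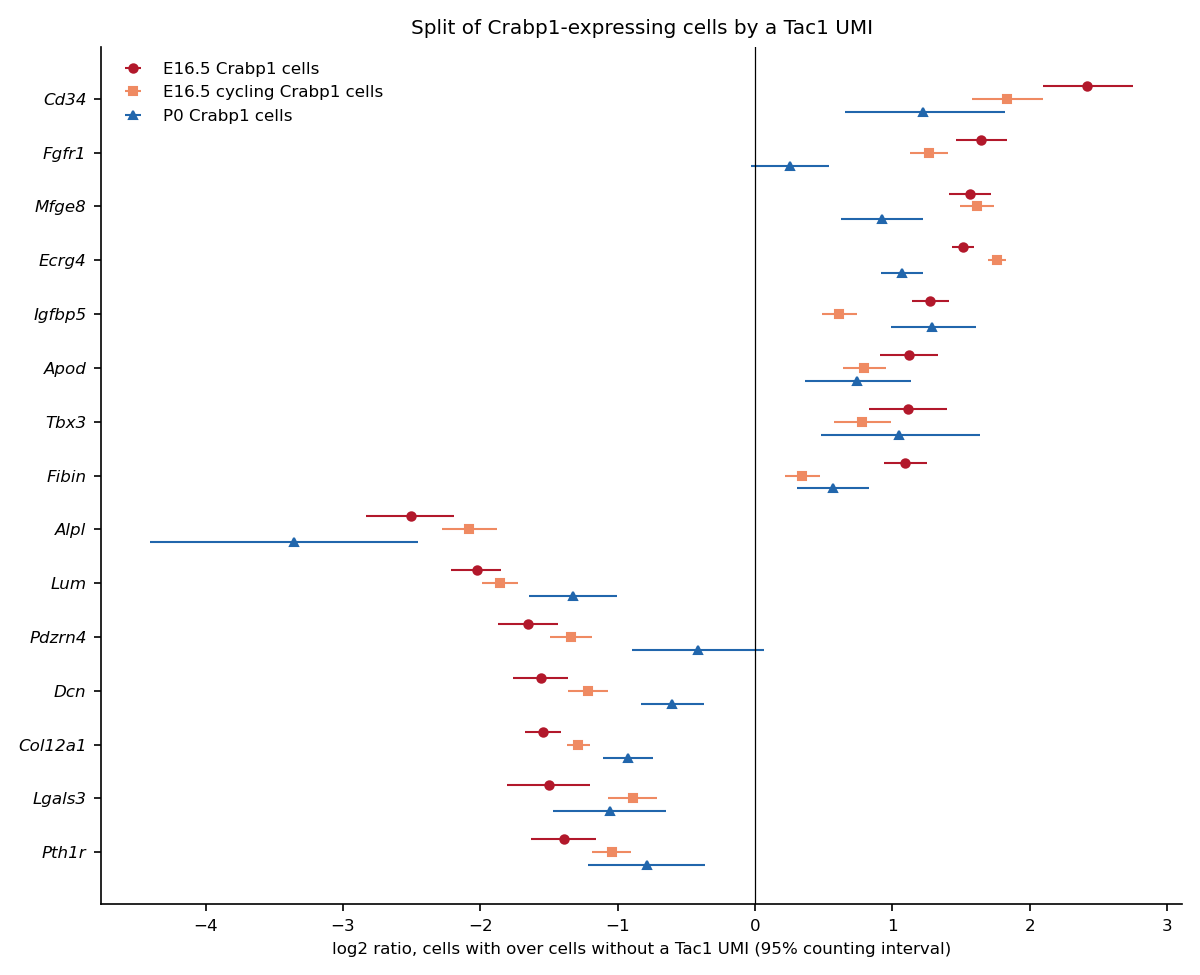
Log2 ratio of 15 genes in cells with over cells without a Tac1 UMI (horizontal axis, 95% counting intervals) among Crabp1 cells of E16.5, cycling Crabp1 cells of E16.5 and cells by the same rule at P0. The 15 genes were picked in the first of these groups, and in both others every one of them lay on the same side of 0.

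The genes whose level over 3222 cells with low Col9a1 and no Ptprc or Pecam1 was most like Crabp1, by Spearman's rho among 2718 genes, were S100a6 (0.39), S100a4 (0.31), Foxd2os (0.29), Tac1 (0.28), Wif1 (0.26), Ddah1, Serpinf1, Gng2, Tnc and Mylk. These are cells of 1 library that share depth and free RNA, and Crabp1 had a rho of 0.15 with a cell's UMIs. Wif1, a secreted Wnt inhibitor, stood at 286 CPM in Crabp1 cells, against 217 CPM in Crabp1-low cells. Tnc, a matrix glycoprotein, stood at 381 CPM, against 324 CPM.

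The same limits found fewer cells in the other libraries. At P0, 145 of 3999 kept cells met them (3.63%, 3.07 to 4.25) with a median of 3 Crabp1 UMIs, and at 13 weeks 67 of 8028 (0.835%, 0.647 to 1.06) with a median of 2. In the adult library 13 of the 67 cells held a single Crabp1 UMI and 22 held 2, and the median depth was 5792 UMIs, against 11068 in the other adult cells. Few barcodes were shared between libraries: 14 between E16.5 and P0, 11 between E16.5 and 13w, and 8 between P0 and 13w.

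At P0, Tac1 stood at 180 CPM in cells by the rule, against 51.6 CPM in Crabp1-low cells and 14.96 CPM in all other kept cells, with log2 ratios of 1.80 and 3.59. At 13 weeks it was at 10.3 CPM from 5 UMIs in 3 cells, against 3.73 and 2.49 CPM. Aldh1a3 was higher than in Crabp1-low cells at each age, at 96.0, 270 and 493 CPM in cells by the rule, against 30.2, 120 and 121 CPM. Ltbp1, which binds latent TGF-beta, stood at 41.0, 89.2 and 101 CPM, against 18.2, 34.4 and 7.65 CPM, and Thy1 at 35.5, 134 and 130 CPM, against 18.1, 64.4 and 30.6 CPM. Mest at 13 weeks stood at 120 CPM, against 4.81 CPM, from 18 of the 67 cells. Cd34 did not keep its side: at 13 weeks it stood at 6.19 CPM, against 18.9 CPM, on 3 UMIs. Age and library cannot be told apart here.

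**Figure D5:**
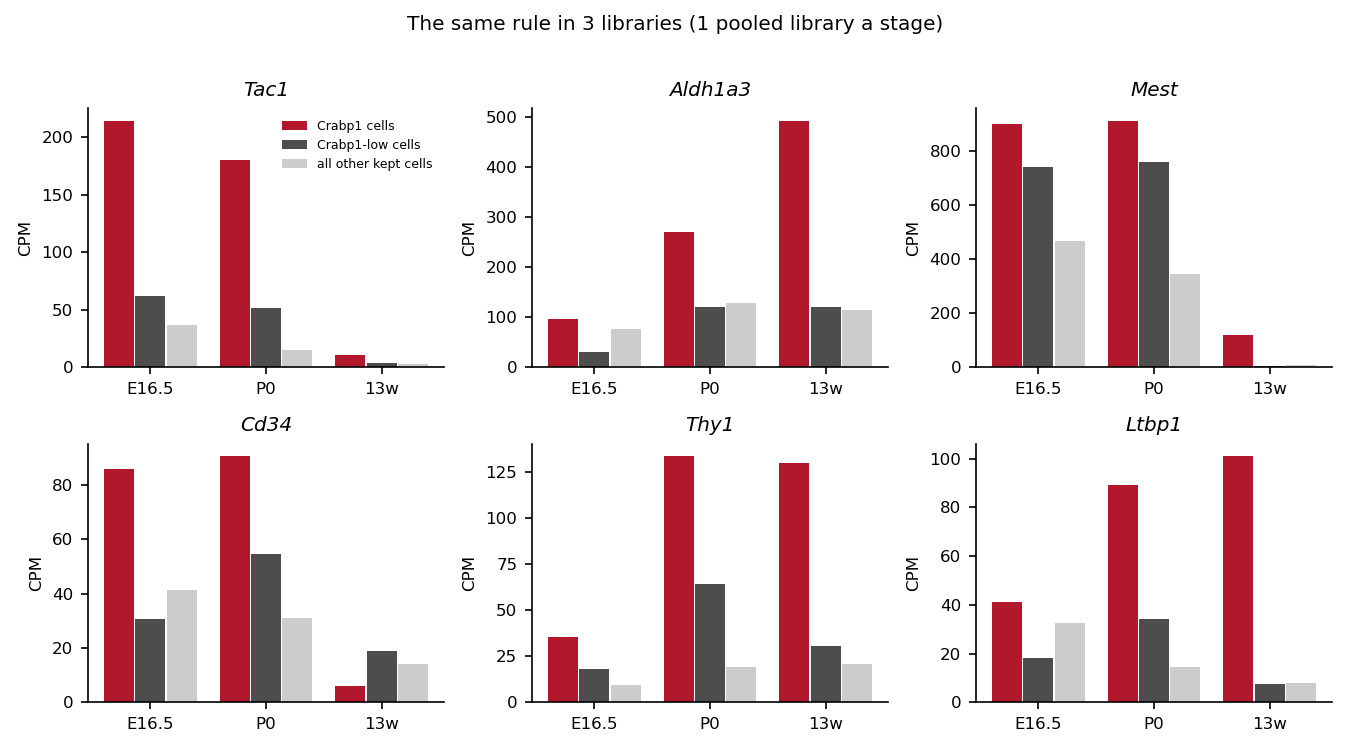
Level of 6 genes (vertical axis, CPM) in cells by the same rule, Crabp1-low cells and all other kept cells at E16.5, P0 and 13w (1 pooled library each). Tac1 was at 214, 180 and 10.3 CPM in cells by the rule, and Aldh1a3 and Ltbp1 were above Crabp1-low cells at all 3 ages.

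At P0, 605 of 8064 measured genes (7.5%) were higher and 1178 (14.6%) lower against all other kept cells, and 83 of 7742 (1.07%) were higher and 251 (3.24%) lower against Crabp1-low cells. Of the 107 genes higher at E16.5 against all other kept cells, 86 were measured at P0 and 67 of these were higher there too, 77.9% of those measured and 11.1% of the P0 list. Both lists come from the same limits, which remove the same cell types at both ages. Against Crabp1-low cells, 8 of the 20 measured higher genes were higher at P0 also, 40.0% of those measured and 9.64% of the P0 list. They include Aldh1a3, Ltbp1, Spon1, Tac1, Trim16, the glutamate receptor subunit Gria3 and the circadian output factor Hlf. Of 43 measured lower genes 29 were lower there, 67.4% of those measured and 11.6% of the P0 list, among them Ibsp, Ifitm5, Smpd3, Lgals3, Slc16a3 and Ebf1. In Crabp1-low cells at P0, 1 cell held 70.4% of the Ibsp UMIs.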

How the data were processed

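Condylar cells of 3 libraries were counted with the 10x Genomics 3′ chemistry. Each deposited matrix gives UMI counts, not normalized, for every gene in every barcode. Per the file headers the authors used Cell Ranger 6.1.2, and per the submitters' processing notes the genome was GRCm39. Further filters of the authors are not given in the sources used here.

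Barcodes under 500 genes or above 10% mitochondrial UMIs were dropped, leaving 4562 of 5458 at E16.5. Raw counts were summed per group and divided by the group's total, with 95% exact intervals (Poisson, conditional binomial, Clopper-Pearson) and a floor of 3 counts where a group had none. Doublets were not removed: Scrublet's threshold marked 5 of 4562 cells and was taken not to have worked. Sub-clusters came from 1000 variable genes, 15 components, 15 neighbours and Leiden resolution 0.5 (scanpy 1.11.5, leidenalg 0.10.2). Functions were tested on simulated data.

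The members, gene lists and markers were chosen with earlier results of these data known. Named genes are the 12 largest ratios per direction and comparison at 100 CPM or more, without rule, mitochondrial, ribosomal, haemoglobin, sex-linked marker, immunoglobulin and predicted genes, up to 4 genes per list, and the 10 most like Crabp1. Genes of the bands, the sub-clusters and the Tac1 split, short lists of called genes, and Alpl, Crabp2, Rarg, Gsc, Igf2, H19, Runx2, Sox9 and Sp7 were chosen after their values were seen. Some genes that the rules name are not reported here. Alternatives were other Crabp1 limits, a mitochondrial limit of 5%, removal of high doublet scores, TMM (edgeR 4.0.16) and median-of-ratios scaling, equal weight per cell, thinning, other CPM limits and removal of other cell classes.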

Additional observations from a re-analysis of the deposited data

How the results depend on the processing

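No paired analysis was possible because each age is 1 library and no comparison has a test. The number of Crabp1 cells stood at 407, and was 265 and 517 at Crabp1 limits of 4 and 1 per 10000 and 580 with the rule applied to cells thinned to 3000 UMIs. Against all other kept cells the 107 higher genes became 181 at the Crabp1 limit of 4, 74 at the limit of 1 and 53 with equal weight per cell. With no minimum CPM they became 1199, and 21 at 50 CPM or more. The 634 lower became 2046 and 223 under the last 2 settings. Against Crabp1-low cells the 31 higher became 56 at the limit of 4, 181 with cells thinned to 3000 UMIs, 609 with no minimum and 4 at 50 CPM, and the 100 lower became 183 with equal weight, 276 thinned, 983 with no minimum and 22 at 50 CPM. The lifted minimum lets genes of few counts in, by construction; for the other settings the cause was not tested. With limits of 1 and 4 the rule found 267 and 58 cells at P0 and 131 and 32 at 13w. The 67 genes higher at both E16.5 and P0 against all other kept cells became 115 at the limit of 4 and 34 thinned, and the 8 against Crabp1-low cells became 2 at the limit of 1 and 16 thinned. Without other cell classes, the log2 ratios of Stfa1 and S100a9 against all other kept cells turned to 0.31 and 0.28, and that of Actc1 against Crabp1-low cells to 5.08. Of 24 named genes past a ratio of 2 against all other kept cells, 11 stayed past it under all alternatives, and 5 of 9 against Crabp1-low cells. Tac1 stayed past it under all, with log2 ratios of 2.32 to 2.80 against all other kept cells and 1.64 to 1.99 against Crabp1-low cells. Alternatives on members with at least 3 Crabp1 UMIs, and without sub-cluster 3 or 5, were chosen after seeing the data and kept each count within 1.5 times. Depth limits the adult library, where 32 of 67 cells had 3 or more Crabp1 UMIs.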
